A study of Mus musculus with 8 samples.

Results

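The clusters described here are those transcript clusters of a mouse whole-transcript array that carry 2 or more gene symbols in the platform annotation. A transcript cluster is a group of probes that the array's makers summarised into 1 value, and where several genes are nearly identical, overlap or were annotated together, 1 cluster can measure any of them or all of them at once. Of the 28944 clusters in the deposited value table, 1621 met the rule, 21789 carried exactly 1 symbol, and 23410 carried at least 1 and were tested. RNA came from hand-dissected corpus callosum, the white matter tract between the cerebral hemispheres, of wild-type male C57BL/6 mice aged 8 weeks that were perfused before dissection. The control group held 4 mice on normal diet, and the cuprizone group held 4 mice that received 0.25% cuprizone for 1 week. Feeding cuprizone, which binds copper, is known to harm oligodendrocytes, the cells that form myelin, and no mouse in either group carried a transgene or a deletion per the labels. Every value below is a log2 level as deposited, every difference is cuprizone minus control, and an error after ± is a standard error for a difference and an SD over 4 arrays for a mean.

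The 1621 clusters shared 798 distinct symbol sets made from 2024 gene symbols. A set was carried by 1 cluster in 511 cases and by several in 287, up to 24 clusters for 1 set. The median cluster had 3 symbols, 717 had exactly 2, and the largest had 20. Related names, such as Gbp2 and Gbp2b, made up 624 clusters, 508 paired 1 named gene with predicted genes, 224 joined unrelated names, 137 held predicted genes only, 120 included a small RNA, and 8 repeated a single symbol. RefSeq places the genes of 674 clusters as neighbours, of 392 apart on 1 chromosome and of 536 on different chromosomes. Probe sequences were not examined and 1 value cannot be divided between its genes, so each cluster is named below by all of its symbols, and what a gene is known to do is background, not a statement that this gene gave the signal.

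Paralogs are copies of a gene made by duplication, and the families that remain most alike in mice lie largely in defence against infection, detoxification, smell, reproduction, chromatin and translation. Interferons are secreted signals of infection and injury. They act through STAT and IRF transcription factors, which bind short promoter elements called GAS and ISRE, and they raise large families of effector genes. Among these are the guanylate-binding proteins, or Gbp genes, the immunity-related GTPases Igtp, Irgm2, Tgtp1 and Tgtp2, the IFI200 family of DNA sensors, and the MHC class I proteins that present peptides to T cells. In white matter, microglia and astrocytes are known to carry such responses, while oligodendrocytes express the myelin genes.

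The promoters of the interferon-response and MHC class I genes are shown first because the largest group of changes lay in these families. Of the 26 genes carried by the clusters that rose, 17 had a promoter window in RefSeq (GRCm38.p6), which spans 250 bases before to 50 bases after the start. An ISRE, searched as GAAA, any 2 bases and GAAA on both strands, was present in a window of 12 of the 17 genes (70.6%). In all, 3.99% of 27025 genes and 3.44% of 32851 single windows had one. A GAS, searched as TTCNNNGAA on both strands, was present in 4 of the 17 genes (23.5%), against 9.55% of all genes and 8.3% of all single windows. All 4 were immunity-related GTPases, and in each the GAS lay 2 bases before the ISRE without overlapping it. A match describes letters and is not evidence of binding. The genes were taken from families known for interferon responses, and family genes that were not called were not set beside them. The shares therefore cannot say whether the genes that changed differ from the rest of their families. Paralogs such as Trim5 and Trim12c count separately. The windows of H2-K1 and H2-D1 held no match to either search pattern, and other forms of the elements were not searched. In the stretches below, which run 5′ to 3′ toward the gene, capitals mark the ISRE and, where it precedes one, the GAS.
Igtp, chr11:58199456-58199555, plus strand: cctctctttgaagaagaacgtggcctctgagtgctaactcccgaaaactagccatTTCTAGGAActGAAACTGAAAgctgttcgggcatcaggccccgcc
Irgm2, chr11:58214877-58214976, plus strand: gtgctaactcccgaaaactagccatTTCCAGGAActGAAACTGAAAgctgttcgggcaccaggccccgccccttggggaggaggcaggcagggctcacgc
Tgtp1, chr11:48992247-48992346, minus strand: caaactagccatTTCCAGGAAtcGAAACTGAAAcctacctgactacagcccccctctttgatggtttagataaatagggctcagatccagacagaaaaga
Tgtp2, chr11:49064213-49064312, minus strand: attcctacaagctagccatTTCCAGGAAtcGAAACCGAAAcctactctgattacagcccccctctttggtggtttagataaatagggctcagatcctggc
Gbp2, chr3:142620563-142620662, plus strand: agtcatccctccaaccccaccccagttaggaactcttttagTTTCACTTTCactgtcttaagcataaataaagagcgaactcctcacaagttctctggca
Gbp2b, chr3:142594697-142594796, plus strand: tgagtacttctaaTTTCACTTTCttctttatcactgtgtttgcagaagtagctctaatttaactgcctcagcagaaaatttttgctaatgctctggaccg
Ifi211, chr1:173913047-173913146, minus strand: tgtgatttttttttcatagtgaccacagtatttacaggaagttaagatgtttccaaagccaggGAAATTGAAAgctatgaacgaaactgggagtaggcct
Trim5, chr7:104288107-104288206, minus strand: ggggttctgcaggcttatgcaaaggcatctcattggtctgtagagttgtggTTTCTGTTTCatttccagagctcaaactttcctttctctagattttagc
Trim12c, chr7:104353350-104353449, minus strand: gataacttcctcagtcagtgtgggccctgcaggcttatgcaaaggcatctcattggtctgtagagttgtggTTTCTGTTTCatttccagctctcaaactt
H2-T23, chr17:36032752-36032851, minus strand: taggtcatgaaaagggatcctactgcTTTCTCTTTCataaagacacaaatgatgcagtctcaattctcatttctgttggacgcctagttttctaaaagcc

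The share of identical alignment columns differed widely between promoters of genes that share a cluster. Gap columns count as differences, so annotated starts at unlike places lower this share. Igtp and Irgm2 had 197 identical bases in 285 columns, and their stretches above share runs of bases at different distances from the start. Over the 250 bases before the start, the aligned promoters of Trim5 and Trim12c were 81.5% identical, those of Igtp and Irgm2 69.1%, those of Tgtp1 and Tgtp2 64.3%, and those of Gbp2 and Gbp2b 50.5%. Outside the interferon families, the promoters of Hspa1a and Hspa1b were 98.8% identical. Those of Bcl2a1a and Bcl2a1d, 2 copies of the BCL2-related A1 gene, were 93.0% identical, and those of Bcl2a1a and Bcl2a1b 69.7%. The stretches of the first pair are given so that the few differences can be seen.
Bcl2a1a, chr9:88956820-88956919, plus strand: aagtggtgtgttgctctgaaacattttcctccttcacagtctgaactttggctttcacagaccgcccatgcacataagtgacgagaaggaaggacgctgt
Bcl2a1d, chr9:88731851-88731950, minus strand: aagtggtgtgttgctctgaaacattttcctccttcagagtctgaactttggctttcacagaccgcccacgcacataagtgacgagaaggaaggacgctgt

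After 1 week of cuprizone, 79 of the 1621 clusters were higher and 22 were lower at an adjusted p under 0.05 in limma, a linear model with moderated variances, adjusted over all 23410 tested clusters. That is 6.23% of them, against 8.22% of all tested clusters and 8.37% of those with a single symbol. By direction, 4.87% were higher, against 4.71% of all tested, and 1.36% were lower, against 3.52%. At least 1.5-fold higher were 21 clusters (1.3%, against 1.4% of all tested) and at least 1.5-fold lower was 1 (0.0617%, against 0.91%). At least 2-fold higher were 7, and 0 were 2-fold lower. The median difference over the 1621 clusters was 0.0024 on the log2 scale, against -0.0074 over all tested clusters. The calls covered 68 symbol sets, 52 higher and 16 lower. The groups did not overlap in 216 clusters (13.3%, against 15.3% of all tested), among them 95 of the 101 called. With identical value rows counted once, 6.6% were called, against 8.28% of all tested. With each array centred on its median, the split was 67 higher and 34 lower. The count of higher clusters fell to 49 without control replicate 4, to 50 without cuprizone replicate 3 and to 52 without control replicate 2. That of lower clusters fell to 14 without control replicate 1, control replicate 4 or cuprizone replicate 3. Of the 101 calls, 53 held when any 1 array was left out, among them 15 of the 21 increases of at least 1.5-fold.

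**Figure D1:**
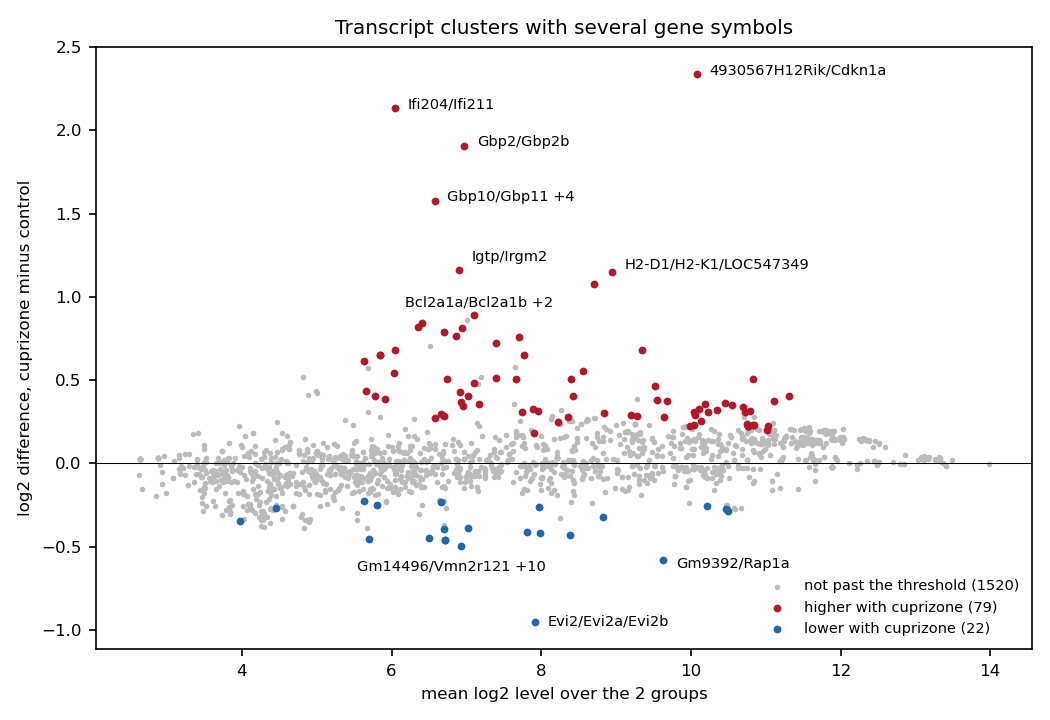
The log2 difference, cuprizone minus control, of each of the 1621 several-symbol clusters (vertical axis) is plotted against its mean log2 level over both groups (horizontal axis). The 79 higher clusters (red) reach 2.34, the 22 lower clusters (blue) reach -0.95, and most of the 1520 others (grey) lie close to 0.

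Calls were less frequent among clusters with many symbols. Of clusters with 2 symbols 9.07% were called, of those with 3 symbols 7.14%, of those with 4 to 5 symbols 3.25% and of those with 6 or more 1.85%. Clusters of unrelated names were called in 9.38% of cases and those of related names in 8.17%, with 32 higher and 19 lower. Clusters of 1 named gene with predicted genes were called in 3.94%, and predicted genes alone in 2.19%. Signal strength differed too, with a median level of 8.00 with 2 symbols, 8.21 with 3, 6.02 with 4 to 5 and 5.75 with 6 or more. Among tested clusters with a mean level up to 5.98, 1.8% of several-symbol and 2.16% of single-symbol clusters were called. From there to 7.45 the shares were 12.2% and 8.22%, up to 8.87 they were 9.62% and 11.3%, and above it 7.12% and 11.5%. What part signal strength had in the shares was not tested. Between clusters that share a set the differences were close: in 261 sets with at least 2 distinct value rows the median range was 0.03. In 30 sets of several clusters at least 1 cluster was called. Of these sets 20 had every cluster called, and 0 had calls in both directions.

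The interferon-response and MHC class I families held 36 several-symbol clusters in 29 symbol sets, of which 17 were higher and 0 lower. Their median difference was 0.53, against -0.0074 over all tested clusters, and 4.71% of all tested clusters were higher. The families' 128 single-symbol clusters had 51 higher, 0 lower and a median of 0.38. In tissue samples like these, more cells of a type and more RNA per cell cannot be told apart. The 17 calls became 8 without control replicate 2, cuprizone replicate 1 or cuprizone replicate 3, 9 without control replicate 4, 11 without control replicate 3 and 22 without cuprizone replicate 2. The smallest of the 17 differences was 0.18 ± 0.05, in Mphosph8/Parp4, genes of unrelated names counted here through Parp4 (limma adjusted p 0.0408). That call was lost without any 1 of the 8 arrays (0.0703 to 0.109). The mice differed from each other. Relative to the control mean, the 36 clusters averaged 0.80, 0.19, 0.86 and 0.45 in cuprizone replicates 1 to 4 and between -0.05 and 0.03 in the controls. Cuprizone replicate 2 was thus the lowest of its group, and its single-symbol clusters, at 0.22, were the lowest too.

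**Figure D2:**
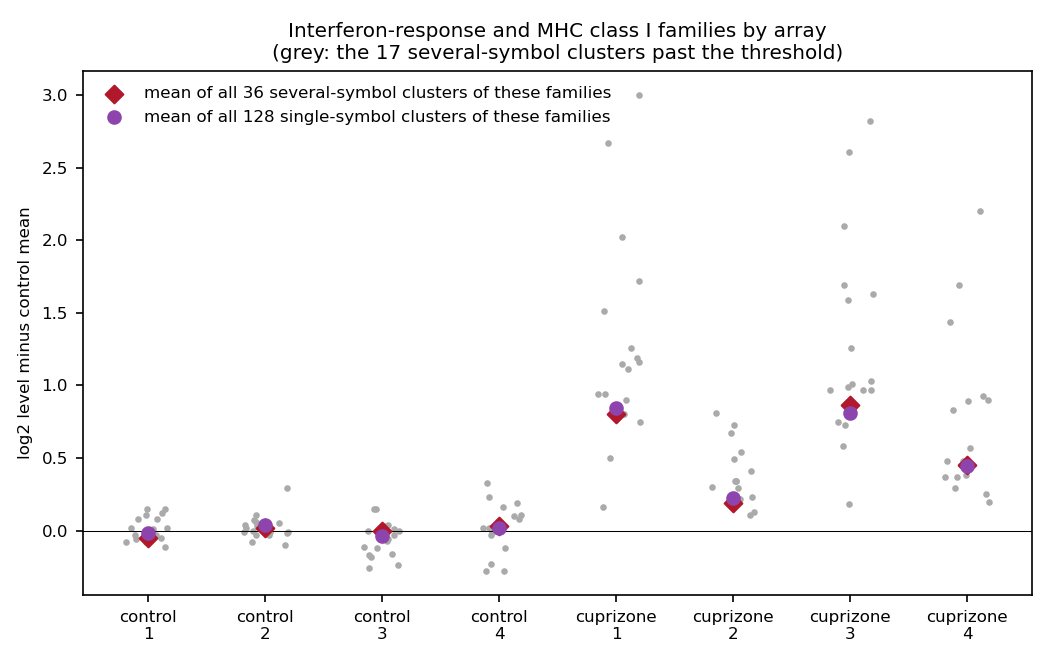
The log2 level minus the control mean is plotted for each of the 8 arrays, with the 17 several-symbol clusters of interferon-response and MHC class I families past the threshold in grey and the means of all 36 several-symbol and all 128 single-symbol clusters of these families as coloured marks. Cuprizone replicates 1 and 3 stand highest, at 0.80 and 0.86 for the several-symbol mean, and replicate 2 lowest, at 0.19.

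The Ifi204/Ifi211 cluster (10360382), of neighbouring IFI200 genes that encode DNA-binding sensors, read 4.92, 5.27, 4.98 and 4.75 in the controls and 7.98, 5.47, 7.80 and 7.18 with cuprizone. Each cuprizone array lay above each control, but replicate 2 by only a small step. The difference was 2.13 ± 0.44, or 4.39-fold, with an adjusted p of 0.0111 in limma.

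Guanylate-binding proteins assemble on membranes around intracellular pathogens, and 2 clusters cover most of the mouse family. The Gbp2/Gbp2b cluster (10496592) read 6.04, 5.94, 5.90 and 6.21 in the controls and 8.69, 6.69, 8.63 and 7.71 with cuprizone. The difference was 1.90 ± 0.36, 3.74-fold, with an adjusted p of 0.00668 in limma. The Gbp4/Gbp6/Gbp8/Gbp9/Gbp10/Gbp11 cluster (10531994) read 5.91, 5.83, 5.53 and 5.89 in the controls and 7.81, 6.52, 7.89 and 7.23 with cuprizone. It was higher by 1.57 ± 0.25, 2.98-fold, with an adjusted p of 0.00249 in limma. The groups did not overlap in either cluster, and replicate 2 was the lowest cuprizone array in both.

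The immunity-related GTPases act on the same vacuoles. The Igtp/Irgm2 cluster (10376326) read 6.24, 6.31, 6.25 and 6.48 in the controls and 8.04, 6.73, 7.95 and 7.22 with cuprizone, a difference of 1.16 ± 0.24 (limma adjusted p 0.0116). Of the 2 Tgtp1/Tgtp2 clusters 1 passed, chosen here after its values were seen, while the other differed by 0.86. The first rose from 6.66 ± 0.20 to 7.55 ± 0.60 (SD, n = 4). Its groups overlapped, since cuprizone replicate 2 at 6.88 lay just under control replicate 4 at 6.89. The limma adjusted p was 0.043, and the call was lost without any 1 of 6 arrays (adjusted p 0.0635 to 0.127). Of the 2 Gm1966/Gm4070/Gm8979/Gm8989/Gvin1 clusters, of very large interferon-induced GTPases, 1 passed and the other differed by 0.57. The one that passed rose from 5.70 ± 0.12 to 6.38 ± 0.45, by 0.68 ± 0.18 (limma adjusted p 0.0392). That call too was lost without any 1 of 6 arrays, at adjusted p 0.0722 to 0.117. In all, 5 of the 9 several-symbol clusters of interferon-inducible GTPases rose, with a family median of 0.86, and 9 of 9 had an unadjusted p under 0.05.

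Neighbouring the Tgtp genes are the clone-named genes 9930111J21Rik1 and 9930111J21Rik2, which share 2 clusters. These were picked after their values were seen. The brighter cluster read 6.43, 6.69, 6.48 and 6.53 in the controls and 7.49, 6.92, 7.70 and 7.28 with cuprizone, 0.81 ± 0.14 higher with an adjusted p of 0.00383 in limma. The other was higher by 0.77 ± 0.13. Both sets of arrays were separate, with cuprizone replicate 2 the lowest of its group again.

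Of 7 several-symbol clusters of MHC class I genes, 4 rose and 0 fell, with a median of 0.65. H2-K1 and H2-D1 encode the classical class I molecules of this strain and share 2 clusters with LOC547349. The brighter cluster (10444780) read 8.34, 8.48, 8.31 and 8.36 in the controls and 9.63, 9.18, 9.96 and 9.30 with cuprizone. It was higher by 1.15 ± 0.14, 2.22-fold, with an adjusted p of 0.000483 in limma, and the other cluster by 1.08 ± 0.19 (adjusted p 0.00466). In both clusters every cuprizone array lay above every control.

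The H2-T-ps/H2-T23 cluster, which includes the gene of the non-classical molecule Qa-1, rose from 7.44 ± 0.10 to 8.09 ± 0.34 (limma adjusted p 0.0147), with no overlap. H2-Q6/H2-Q8 rose from 7.04 ± 0.23 to 7.76 ± 0.44 (limma adjusted p 0.039), but control replicate 4 at 7.37 lay above cuprizone replicate 2 at 7.27, and the call was lost without any 1 of 5 arrays (0.0905 to 0.117). H2-T10/H2-T22/H2-T9 stood at 7.36 ± 0.26 and 7.94 ± 0.38, with an adjusted p of 0.0721 in limma. H2-Bl/H2-Q1 differed by 0.07 ± 0.06 and H2-T18/H2-T3 by 0.01 ± 0.05. The single cluster of class II genes, H2-DMb1/H2-DMb2, whose products load peptides onto class II molecules, differed by 0.09 ± 0.08 (adjusted p 0.615).

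Trim5, Trim12a and Trim12c encode ring-finger proteins of the TRIM family. Their shared cluster read 5.91, 5.97, 5.91 and 5.95 in the controls and 7.05, 6.24, 6.97 and 6.77 with cuprizone, a rise of 0.82 ± 0.14 (limma adjusted p 0.00458). A second cluster with Trim12c and Trim5 rose by 0.55 ± 0.13 (adjusted p 0.0258), and this call was lost without any 1 of 6 arrays, at 0.0508 to 0.0805. Sp110 encodes an interferon-induced nuclear body protein. It shares its clusters with predicted genes that RefSeq places elsewhere, and 4 of the 13 several-symbol clusters of the Sp100 and Sp140 family rose. The Gm15753/Sp110 pair, 2 clusters with identical values, rose from 5.52 ± 0.20 to 6.17 ± 0.35 (limma adjusted p 0.0257). Without control replicate 2, control replicate 4, cuprizone replicate 1 or cuprizone replicate 3 it did not pass (0.0624 to 0.0764). Each of the 4 calls was lost without at least 1 array. The family's median was 0.22.

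The 21 several-symbol clusters of the interferon ligands themselves, the alpha interferons and their relatives, had 0 higher and 0 lower in limma, with 1 at an unadjusted p under 0.05. Their median difference was 0.05. The cluster with the smallest p, which holds Ifna1, Ifna12, Ifna13, Ifna14, Ifna15, Ifna16 and 6 more, stood at 5.88 ± 0.09 in the controls and 5.69 ± 0.16 with cuprizone (adjusted p 0.222). Of related defence genes, Psme2/Psme2b, for a subunit of the interferon-inducible proteasome activator, rose from 7.41 ± 0.06 to 7.92 ± 0.24. That cluster was picked after its values were seen. Its adjusted p was 0.0109 in limma, and the groups did not overlap.

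**Figure D3:**
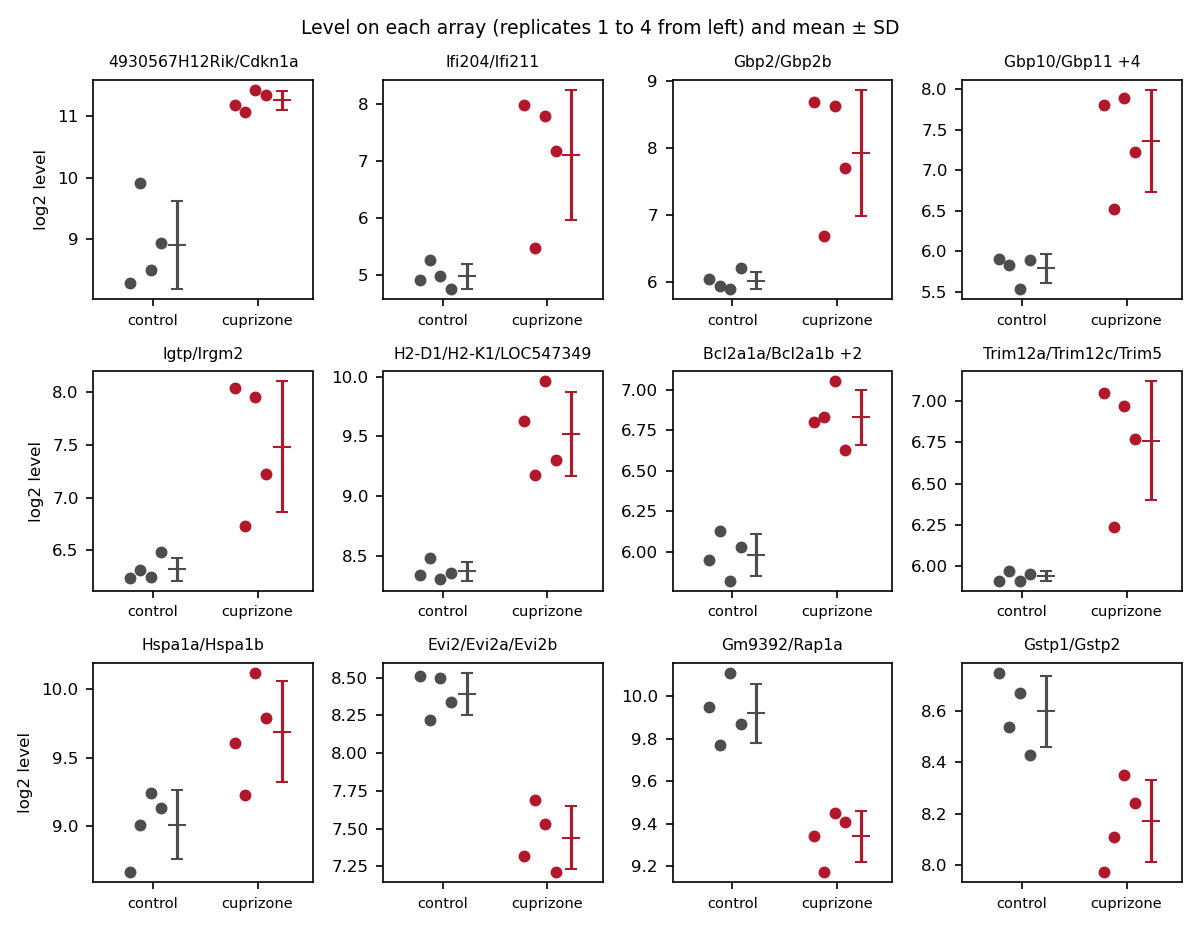
Log2 levels on each of the 8 arrays are plotted for 12 several-symbol clusters (the one with the largest difference of each set), with control arrays in grey, cuprizone arrays in red, and the mean ± SD of each group beside them; each panel has its own vertical axis. The groups overlap for Hspa1a/Hspa1b alone. Cuprizone replicate 2, the second red point, lies nearest the controls in the interferon, Cdkn1a, Hspa1a/Hspa1b and Evi2 panels, but not in those of Bcl2a1, Rap1a or Gstp1.

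Markers of other cells moved as follows, measured by single-symbol clusters, beside 4.71% higher and 3.52% lower of all tested clusters. Of 43 microglial and phagocyte genes 35 were higher and 0 lower, and their mean level ran from 7.51 to 7.65 in the controls and from 8.16 to 8.53 with cuprizone. Of 28 reactive astrocyte genes 20 were higher, and of 17 genes of astrocyte identity 4 were higher and 3 lower. Of 25 blood leukocyte genes 0 were called, with means of 5.41 to 5.56 and 5.41 to 5.55, and of 4 red blood cell genes 0. Of 18 choroid plexus and ependymal genes 1 was lower, and their mean level was 6.69, 7.31, 6.77 and 7.18 in cuprizone replicates 1 to 4, against 6.64 to 7.58 in the controls. It was highest in the cuprizone arrays where the interferon families were lowest. In control replicates 1 to 4 it was 6.89, 7.32, 6.64 and 7.58, while the 36 interferon-response and MHC class I clusters averaged between -0.05 and 0.03 there. The part of these cells in the clusters above was not tested. Of 44 mature oligodendrocyte genes 43 were lower, with means of 9.89 to 10.13 in the controls and 8.18 to 8.69 with cuprizone. Cuprizone replicate 2 lay nearest the controls in the microglial, reactive astrocyte and oligodendrocyte lists, with means of 8.16, 8.35 and 8.69. In lists of stress-response genes and of cholesterol and fatty acid synthesis, replicate 4 at 8.81 and replicate 3 at 9.28 lay nearest. Mbp at 12.25, Mag at 11.52 and Mog at 11.14 (control means), each brighter than 81.1% or more of the tested clusters, fit white matter. Neuronal genes were bright as well. Of 26 such genes 1 was higher and 0 lower, with list means of 10.62 to 10.72 in the controls and 10.63 to 10.73 with cuprizone. On every array that mean lay above that of the oligodendrocyte list. What part of the RNA came from neurons was not tested.

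The 4930567H12Rik/Cdkn1a cluster (10443463) had the largest difference of all 1621. Cdkn1a encodes p21, the cyclin-dependent kinase inhibitor that arrests the cell cycle, while 4930567H12Rik is a clone-named transcript that RefSeq places on another chromosome. It read 8.30, 9.91, 8.50 and 8.94 in the controls and 11.17, 11.07, 11.42 and 11.34 with cuprizone. Control replicate 2 was well above the other controls but still below all cuprizone arrays. The difference was 2.34 ± 0.28, 5.05-fold, with an adjusted p of 0.00038 in limma. The 22 other measured genes of the p53 and growth arrest list, from single-symbol clusters, had 13 higher and 0 lower. Of all tested clusters 4.71% were higher. The mean of the 22 was 8.18 in control replicate 2 against 7.97 to 7.98 in the other controls.

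All 3 clusters of Bcl2a1a/Bcl2a1b/Bcl2a1c/Bcl2a1d rose. These genes encode A1, a pro-survival BCL2 relative known from leukocytes and macrophages. The first (10587683) read 5.95, 6.13, 5.82 and 6.03 in the controls and 6.80, 6.83, 7.05 and 6.63 with cuprizone, a difference of 0.84 ± 0.09 (limma adjusted p 0.000232). The others rose by 0.79 ± 0.08 and 0.76 ± 0.09. Cuprizone replicate 2 did not stand below the rest here. A single-symbol cluster of Bcl2a1c rose by 0.81 ± 0.14 (adjusted p 0.00395). Itgam, which encodes the CD11b integrin chain of microglia and other myeloid cells, occurs among these clusters only together with Rpl35, a ribosomal protein gene on another chromosome. All 3 Itgam/Rpl35 clusters rose, by 0.31 to 0.34, from control means of 10.53 to 10.63.

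Ly6c1/Ly6c2, genes of surface antigens known from vessels and from monocytes respectively, rose in both of their clusters, by 0.32 ± 0.07 and 0.31 ± 0.07. The first read 10.06, 10.23, 10.24 and 10.22 in the controls and 10.48, 10.38, 10.69 and 10.49 with cuprizone. Its limma adjusted p was 0.0209, and 0.0628 without control replicate 1, the lowest control. Of 21 single-symbol genes of vessels and mural cells 1 was higher, with list means of 8.10 to 8.16 in the controls and 8.08 to 8.19 with cuprizone. Adora3/Tmigd3, neighbours of which Adora3 encodes an adenosine receptor, rose from 6.82 ± 0.05 to 7.22 ± 0.18 (limma adjusted p 0.0113). It was picked after its values were seen, as was Pnp/Pnp2. Pnp/Pnp2, for purine nucleoside phosphorylase, rose from 8.28 ± 0.09 to 8.84 ± 0.23 (limma adjusted p 0.00621). Rnaset2a/Rnaset2b, for a lysosomal ribonuclease, rose by 0.38 ± 0.05 and 0.37 ± 0.05 in its 2 clusters, with controls of 9.32 to 9.39 and cuprizone arrays of 9.69 to 9.80 in the cluster with the larger difference.

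Evi2/Evi2a/Evi2b had the largest decrease. These genes of small membrane proteins lie within an intron of Nf1, and Evi2a is known from oligodendrocytes. The cluster (10388958) read 8.51, 8.22, 8.50 and 8.34 in the controls and 7.32, 7.69, 7.53 and 7.21 with cuprizone. It was lower by 0.95 ± 0.11 (1.93-fold), with a limma adjusted p of 0.000242, and the groups did not overlap. It was the only several-symbol cluster at least 1.5-fold lower among those called, and the only one that holds a gene of the oligodendrocyte list. Gm9392/Rap1a, whose named member encodes a small GTPase of cell adhesion, fell from 9.92 ± 0.14 to 9.34 ± 0.12 (limma adjusted p 0.00144). A single-symbol Rap1a cluster fell by 0.46 ± 0.08 (adjusted p 0.00328). Gm6194/Tmem189, of which Tmem189 encodes an enzyme of plasmalogen synthesis, fell from 8.99 ± 0.14 to 8.67 ± 0.11 (limma adjusted p 0.0331). That call was lost without any 1 of 5 arrays, at adjusted p 0.0575 to 0.09.

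Of the detoxification families, 2 of 6 several-symbol glutathione transferase clusters fell, and 1 of 4 glucuronosyltransferase and 1 of 7 cytochrome P450 clusters rose. Of all tested clusters 4.71% rose and 3.52% fell. Gstp1/Gstp2, for the pi-class glutathione transferases, fell in both of their clusters. The brighter (10464586) read 8.75, 8.54, 8.67 and 8.43 in the controls and 7.97, 8.11, 8.35 and 8.24 with cuprizone, a difference of -0.43 ± 0.09 (limma adjusted p 0.0146), with no overlap. A single-symbol Gstp1 cluster fell by 0.48 ± 0.10 (adjusted p 0.0144). The family's median was -0.001. The cluster of Ugt1a1, Ugt1a10, Ugt1a2, Ugt1a5, Ugt1a6a, Ugt1a6b and 2 more, splice forms of a glucuronosyltransferase locus, rose from 5.72 ± 0.08 to 6.11 ± 0.07 (limma adjusted p 0.00258). The cytochrome P450 cluster that rose was Cyp4v3/Klkb1, by 0.27 ± 0.06.

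Ftl1 encodes the light chain of ferritin, the iron store of the cell, and shares 4 clusters with the microRNA genes Mir692-2 and Mir692-3. All 4 rose, by 0.30 to 0.36, with limma adjusted p of 0.0126 to 0.0215. The cluster with the largest difference read 10.34, 10.28, 10.29 and 10.19 in the controls and 10.51, 10.52, 10.86 and 10.66 with cuprizone. Its call did not hold without control replicate 4 (0.0559). The weakest of the 4 lost its call without any 1 of 4 arrays, at 0.0589 to 0.0672. Hspa1a/Hspa1b, the stress-inducible HSP70 genes, rose from 9.01 ± 0.25 to 9.69 ± 0.37 (limma adjusted p 0.0348). Its groups overlapped by a hair, control replicate 3 at 9.24 against cuprizone replicate 2 at 9.23, and 6 of the 8 arrays could each end the call by being left out (0.0616 to 0.0938). The other 9 several-symbol heat shock clusters did not pass, and the family median was 0.02.

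Counting those with Mir692-2 and Mir692-3, microRNA symbols occurred in 61 clusters of 32 sets, of which 6 clusters in 3 sets rose and 0 fell, against 4.71% of all tested clusters that rose. The Ftl1 set gave 4 of the 6. These clusters hold a host or overlapping transcript as well, and the mature RNA was not measured apart from it. The mature sequences that RefSeq (GRCm38.p6) gives for the 3 sets are shown with the seed, bases 2 to 8, in capitals, to show that no 2 different microRNAs among them share a seed.
miR-92a-1-5p, chr14:115044437-115044459, plus strand: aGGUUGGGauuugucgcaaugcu
miR-92a-3p, chr14:115044476-115044496, plus strand: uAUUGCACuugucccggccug
miR-410-5p, chr12:109743729-109743749, plus strand: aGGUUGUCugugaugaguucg
miR-410-3p, chr12:109743764-109743784, plus strand: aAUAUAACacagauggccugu
miR-692, chr4:125504805-125504825 and chr13:74407121-74407141, plus strand: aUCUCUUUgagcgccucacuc

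The Mir17hg/Mir92-1 cluster, from the host gene of the miR-17 to miR-92a polycistron, which is known for promoting proliferation, rose from 5.57 ± 0.13 to 5.98 ± 0.14 (limma adjusted p 0.0111). Its controls read 5.50, 5.73, 5.62 and 5.44 and its cuprizone arrays 5.83, 6.14, 6.03 and 5.92, with no overlap. Mir410/Mirg, from an imprinted microRNA cluster, read 8.14, 8.30, 8.22 and 8.24 and then 8.50, 8.41, 8.47 and 8.63. It rose by 0.28 ± 0.06 (limma adjusted p 0.0193), or 0.0605 without control replicate 1. The 63 clusters with small nucleolar or nuclear RNAs, guides of RNA modification and splicing, had 0 calls and 1 at an unadjusted p under 0.05.

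**Figure D4:**
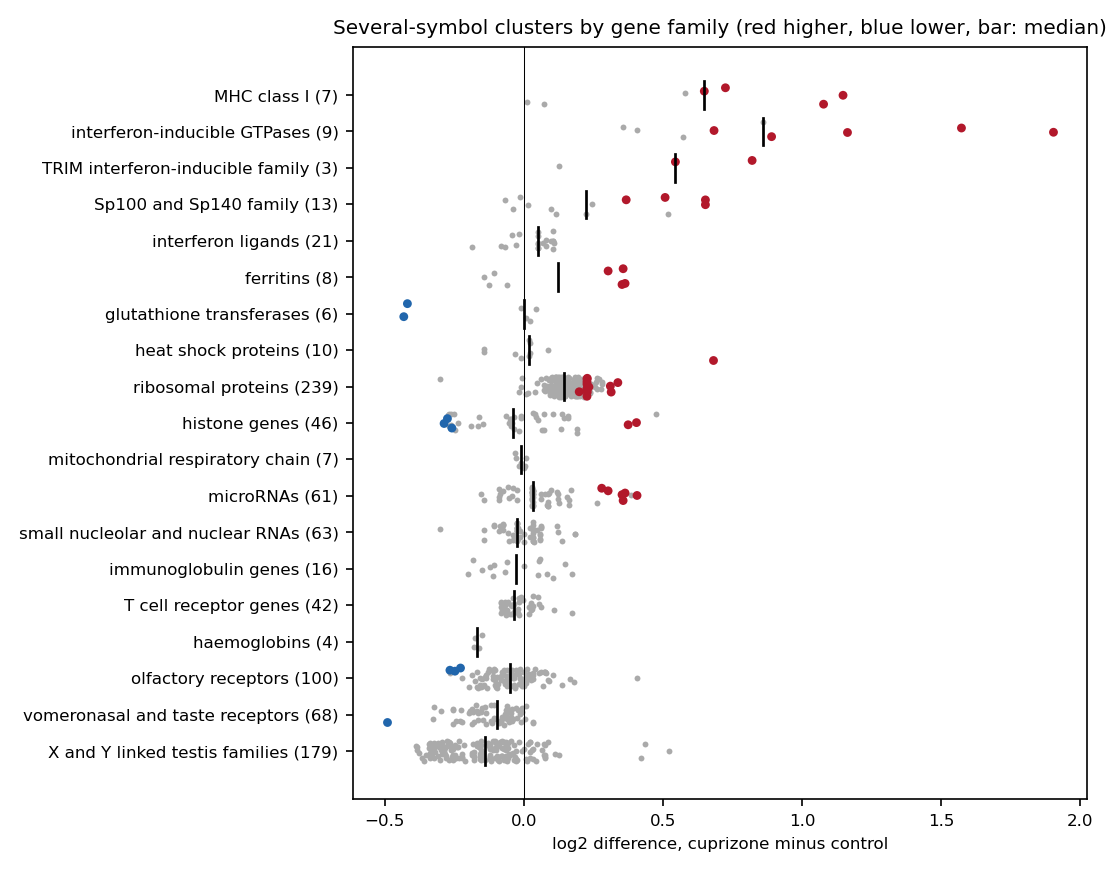
Each point is the log2 difference, cuprizone minus control, of 1 several-symbol cluster in the family named at the left (number of clusters in brackets; a cluster can be in more than 1 family), with clusters past the threshold in red (higher) or blue (lower) and the family median as a bar. The interferon-inducible GTPases and MHC class I genes lie to the right, ribosomal proteins sit narrowly around 0.14, and testis families spread to the left around -0.14 without a call.

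Ribosomal protein genes made up the largest family, 239 clusters in 53 sets with 234 distinct value rows. Of these 13 rose and 0 fell (5.44%), against 4.71% of all tested clusters that rose. Their median difference was 0.14, with 119 at an unadjusted p under 0.05, and the 229 single-symbol ribosomal protein clusters had a median of 0.18 and 20 higher. The 13 came from 4 sets: Itgam/Rpl35 with 3, Ino80/Rpl35a with 7 of its 12, Rpl37/Rpl37rt with 2 and Rpl13a/Zfp526 with 1. Among the 7 called Ino80/Rpl35a clusters, 4 had identical values, so the share of 5.44% counts 1 measurement 4 times. Rpl13a/Zfp526 read 10.95, 10.89, 10.92 and 10.92 in the controls and 11.13, 11.13, 11.17 and 11.05 with cuprizone (limma adjusted p 0.0343). The 13 became 3 without control replicate 1, 2 or 4 or without cuprizone replicate 1 or 3, 4 without cuprizone replicate 4, 7 without control replicate 3 and 21 without cuprizone replicate 2. They became 4 with arrays centred on their medians and 24 after a second quantile normalization, while the median stayed between 0.12 and 0.14.

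Of 15 several-symbol clusters of translation factors 2 rose and 0 fell, and of 7 tubulin clusters 1 rose and 0 fell, while 4.71% of all tested clusters rose. Eif3j1/Eif3j2, for a subunit of an initiation factor, rose in both clusters, by 0.28 ± 0.07 and 0.26 ± 0.07, and each call was lost without any 1 of 6 arrays (0.0657 to 0.106). Tubb2a/Tubb2a-ps2/Tubb2b, for beta tubulins, rose from 9.28 ± 0.14 to 9.75 ± 0.20 (limma adjusted p 0.0161), or 0.0521 without control replicate 4. Gm7809/Tpm4, for a tropomyosin that lines actin filaments, rose from 10.58 ± 0.08 to 11.08 ± 0.10 (limma adjusted p 0.000651). It was picked after its values were seen. Actb/Actg1, the cytoplasmic actins, stood at 12.35 ± 0.06 and 12.37 ± 0.06. The 7 clusters of respiratory chain subunits had 0 calls and 0 at an unadjusted p under 0.05, with a median of -0.01.

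The replication-dependent histone genes lie in arrays of near-identical copies, whose messages are made when cells copy their DNA, whereas H3f3b encodes the replacement histone H3.3 that non-dividing cells use. Of 46 several-symbol histone clusters 2 rose and 3 fell, near the shares of all tested clusters (4.71% and 3.52%). Gm6485/H3f3b rose in both of its clusters, by 0.41 ± 0.07 and 0.37 ± 0.07. The first read 11.26, 11.10, 10.97 and 11.09 in the controls and 11.45, 11.49, 11.55 and 11.56 with cuprizone (limma adjusted p 0.00355). The set of H3c1, H3c10, H3c11, H3c13, H3c14, H3c15 and 6 more had 10 clusters, all lower by 0.24 to 0.29, of which 2 passed. The one with the largest decrease read 10.79, 10.62, 10.53 and 10.60 and then 10.19, 10.37, 10.39 and 10.45 (limma adjusted p 0.0397), a call lost without any 1 of 6 arrays (0.0682 to 0.102). The second was lost without any 1 of the 8 (0.0559 to 0.121). H1f4/H2bc6 fell from 8.10 ± 0.07 to 7.84 ± 0.10 (limma adjusted p 0.0307), lost without any 1 of 6 arrays (0.0534 to 0.0888). With arrays centred on their medians, 9 histone clusters were lower.

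Single-symbol clusters of the same H3 genes went the other way. H3c15 rose from 5.25 ± 0.20 to 5.98 ± 0.27 (limma adjusted p 0.00579) and H3c4 from 6.80 ± 0.03 to 7.21 ± 0.09 (0.00147), while H3c7 differed by -0.24 ± 0.10 (0.225). The 12-gene clusters and the single-symbol clusters of 2 of their genes therefore moved in opposite directions, the only such case among the called clusters. The difference between them was not tested.

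Families known mainly from other organs or from blood had the counts below, beside 4.71% higher and 3.52% lower of all tested clusters. Several of them were dim, with median levels of 4.96 for olfactory, 4.85 for vomeronasal and taste and 4.37 for testis families. Of several-symbol clusters up to 5.98, 1.8% were called. What part the dim signal had in the counts was not tested. Olfactory receptors had 100 clusters, 0 higher and 3 lower, with a median of -0.05, and each of the 3 calls was lost when any 1 of at least 5 arrays was left out. Vomeronasal and taste receptors had 68 clusters, 0 higher and 1 lower. That cluster, with Gm14496, Vmn2r121, Vmn2r122, Vmn2r129, Vmn2r16 and further receptor genes, fell from 7.18 ± 0.18 to 6.68 ± 0.22 (limma adjusted p 0.0231). It was lost without control replicate 2, control replicate 3, cuprizone replicate 2 or cuprizone replicate 3 (0.0524 to 0.0658). The X- and Y-linked testis families, such as Ssty1, Sly and Xlr genes, had 179 clusters, 0 calls, 10 at an unadjusted p under 0.05 and a median of -0.14. Their Xlr4a/Xlr4b/Xlr4c cluster with the smallest p stood at 4.79 ± 0.10 and 5.21 ± 0.33 (adjusted p 0.09). The 42 T cell receptor and 16 immunoglobulin clusters, genes of lymphocytes, had 0 calls, with 0 and 2 at an unadjusted p under 0.05. The 4 haemoglobin clusters had 0 calls and 0 at an unadjusted p under 0.05. Hba-a1/Hba-a2 stood at 8.22 ± 0.74 in the controls and 8.04 ± 0.47 with cuprizone, the widest spread among mice of the clusters named here in the controls.

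Some symbol sets of genes known from other organs fell. Duxbl1/Duxbl2, homeobox genes known from germ cells and early embryos, fell in all 3 clusters, which hold 2 distinct value rows, by 0.39 to 0.46. The largest read 7.01, 6.82, 7.00 and 6.97 and then 6.60, 6.50, 6.45 and 6.42 (limma adjusted p 0.00117). Cldn34c1/Cldn34c4/Gm2411, claudin-like genes, fell in all 3 clusters, by 0.39 to 0.45, and a single-symbol Cldn34c4 cluster differed by 0.07 ± 0.10. The weakest of the 3 lost its call without any 1 of 4 arrays (0.0579 to 0.0672). Catspere1/Catspere2, for a subunit of the sperm calcium channel, fell from 8.02 ± 0.05 to 7.61 ± 0.16 (limma adjusted p 0.00668), while a single-symbol Catspere2 cluster differed by -0.07 ± 0.13. Klra3/Klra5/Klra9, natural killer cell receptors, fell from 4.15 ± 0.09 to 3.81 ± 0.16 (limma adjusted p 0.0244), near the dim end of the table. Single-symbol clusters of Klra3 and Klra5 differed by -0.02 and 0.05 (limma adjusted p 0.948 and 0.852). The shared cluster's call was lost without any 1 of 4 arrays (0.0597 to 0.0737).

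Whether a shared cluster follows its genes can be seen where the table also holds a cluster for 1 of them alone. Of the 1621 clusters 909 have such a partner, and so have 54 of the 101 called. In 23 of the 54 a partner was called in the same direction, in 2 in the opposite direction, and in 29 no partner was called. Agreement was close for Bcl2a1, Rap1a and Gstp1. It was close too for Trim12a/Trim12c/Trim5, at 0.82 ± 0.14, beside Trim12a at 0.92 ± 0.19 and Trim12c at 0.77 ± 0.11.

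The Gbp family showed wide gaps. Beside 1.90 ± 0.36 for Gbp2/Gbp2b, the Gbp2b cluster differed by 0.34 ± 0.10 (limma adjusted p 0.055). Beside 1.57 ± 0.25 for the shared cluster of 6 genes, Gbp11 rose by 0.51 ± 0.12 (0.0222) and Gbp9 by 0.42 ± 0.11 (0.0402), and Gbp4 differed by 0.39 ± 0.15 (0.157) and Gbp8 by 0.25 ± 0.08 (0.0671). Control means of these single-symbol clusters ran from 5.19 for Gbp2b to 6.66 for Gbp9, beside 6.02 and 5.79 for the shared clusters. Gbp2, Gbp6 and Gbp10 had no single-symbol partner. All 5 single-symbol values were above 0, but none came near that of its shared cluster. The reverse held for Fyb, an adaptor protein of leukocyte adhesion and microglia. Its own cluster rose from 6.50 ± 0.20 to 7.73 ± 0.08, by 1.23 ± 0.09 (limma adjusted p 1.86e-05), while the brighter Fyb/Phb cluster, shared with the mitochondrial prohibitin gene on another chromosome, differed by 0.09 ± 0.09 (0.668). Of the clusters not called, 46 in 20 sets have a called partner. These gaps between clusters were not tested.

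**Figure D5:**
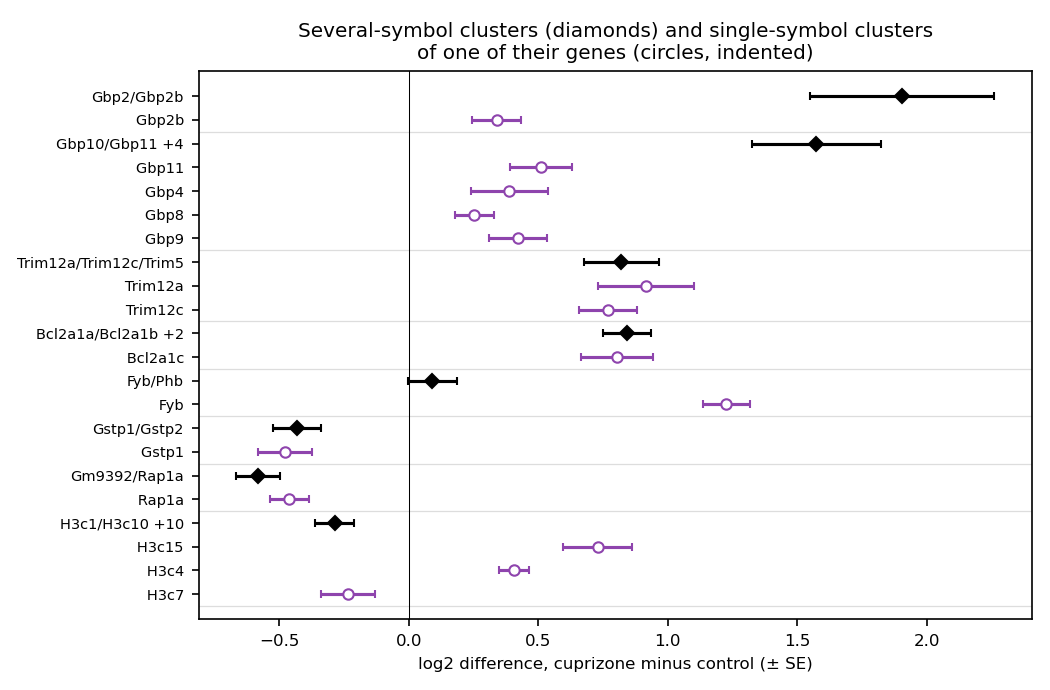
The log2 difference, cuprizone minus control, with its standard error is shown for 8 several-symbol clusters (black diamonds) and below each for the single-symbol clusters of its genes (purple circles). Trim12, Bcl2a1, Gstp1 and Rap1a circles lie beside their diamonds, whereas the Gbp circles, at 0.25 to 0.51, lie far below diamonds at 1.57 and 1.90, Fyb far above its diamond, and H3c15 and H3c4 on the other side of 0.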

How the data were processed

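The deposited table of 8 arrays holds values that the authors had already put on a log2 scale. The submitters' processing notes list Affymetrix Expression Console, Transcriptome Analysis Console and RMA, with neither roles nor versions. RMA gives all arrays almost 1 distribution, which hides any shift common to most transcripts and shrinks large folds. The annotation release and the array's build are not given in the sources used here. The labels call the samples biological replicates. No scan date or detection call entered, so batches and the distance from background were not examined.

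Clusters were named through the platform annotation, and 2007 of 2032 gene identifiers matched RefSeq (GRCm38.p6). Neighbours lie within 10 positions of each other in RefSeq's gene order. Of the 1621 clusters, 259 share all 8 values with another, leaving 1455 distinct rows. All were tested, with no filter on low values.

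Each of the 23410 clusters with a symbol was fitted with limma 3.58.1 in R 4.3.3 (2 groups, no covariate, moderated variances, two-sided) and adjusted by the Benjamini-Hochberg method. The steps were tested on simulated data. Families were assembled from symbol patterns, and the pattern of ribonucleases took in Rnaset2. The members, families and lists were chosen with earlier results of these data known. Named clusters were the 15 largest increases and 15 largest decreases called without overlap, leaving out predicted, clone-named, small RNA and chemosensory sets. To these came up to 4 called per family or list, or 1 per family without a call, all haemoglobin and MHC clusters, the single-symbol partners of the first group, and the 5 largest gaps to a partner. Promoters were aligned globally over the 250 bases before the start, with identity counted over all aligned columns. Alternatives were a replicate block, single arrays left out, other priors, moderation, normalization, filters, weights and a test against a 1.2-fold change. Same-numbered arrays did not deviate together (correlations of -0.186, -0.0246, 0.21 and -0.0646), so the numbers were not taken as pairs.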

Additional observations from a re-analysis of the deposited data

Results flagged for a closer look

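Among the 166 groups of 4 arrays examined for the named clusters, 9 had 1 array far from the other 3, and chance gives about 1 in 20. In Catspere1/Catspere2, control replicate 4 stood at 8.10 against 7.99 to 8.01 in the other controls. In Ly6c1/Ly6c2, control replicate 1 stood at 10.06 against 10.22 to 10.24 in one cluster and at 9.96 against 10.10 to 10.12 in the other. In H2-T10/H2-T22/H2-T9, cuprizone replicate 3 stood at 8.50 against 7.70 to 7.80, and in H2-T18/H2-T3 cuprizone replicate 4 stood at 5.49 against 5.54 to 5.55. In Itgam/Rpl35, cuprizone replicate 2 stood at 10.71 against 10.92 to 10.94. In Eif3j1/Eif3j2, control replicate 3 stood at 9.64 against 9.45 to 9.48 in one cluster and at 10.16 against 9.94 to 9.97 in the other. In Ndufb4/Ndufb4b, of respiratory chain genes, cuprizone replicate 3 stood at 10.88 against 10.51 to 10.53.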

How the results depend on the processing

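The 79 higher and 22 lower clusters became 60 and 14 with the replicate number as a block, a fit that assumes a pairing the arrays did not show. Leaving out 1 array gave 49 to 95 higher and 14 to 18 lower. The counts were 32 and 10 with an ordinary F test and 9 and 1 in the test against a 1.2-fold change. With arrays centred on their medians, 34 were lower. Counting each symbol set once by its brightest cluster gave 49 and 13. Counting identical rows once, chosen after seeing the data, gave 75 and 21. The 17 interferon-response and MHC class I calls ranged from 8 to 22 and the 13 ribosomal calls from 3 to 21 without 1 array. The ribosomal calls became 4 when arrays were centred and 24 when quantile normalized again. These counts for the 2 groups were also chosen after seeing the data, and the causes were not tested. Of the 60 called among 83 named clusters, 6 kept the call in every alternative, 0 reversed, and 50 were lost against a 1.2-fold change. The number of arrays limits the precision, and no value says how far a dim cluster stands above background.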

Other observations

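Further neighbouring genes gave calls, in clusters picked after their values were seen. Hyal1/Naa80, for a lysosomal hyaluronidase and an actin-modifying enzyme, rose from 7.14 ± 0.05 to 7.66 ± 0.16 (limma adjusted p 0.00173), while the second cluster of the pair differed by 0.20, the widest range within any set at 0.32. Cpt1b/Gm44502, of which Cpt1b encodes a carnitine palmitoyltransferase, rose from 6.70 ± 0.10 to 7.12 ± 0.07 (limma adjusted p 0.00195). Capn3/Ganc, for a calpain and a glucosidase, rose from 6.79 ± 0.03 to 7.13 ± 0.14 (limma adjusted p 0.012). Gal3st2/Gal3st2b/Gal3st2c, for sulfotransferases of galactose-bearing glycans, rose in both clusters, by 0.62 ± 0.12 and 0.43 ± 0.09. Cbx6/Npcd/Nptxr, of which Nptxr encodes a neuronal pentraxin receptor, fell from 10.35 ± 0.09 to 10.09 ± 0.02 (limma adjusted p 0.0177). None of these calls was lost when 1 array was left out.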
